A study of Mus musculus with 2 samples.

Results

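The genes described here are the 10 that license DNA replication in the mouse: Mcm2, Mcm3, Mcm4, Mcm5, Mcm6, Mcm7, Mcm10, Cdc6, Cdt1 and Gmnn, which encodes geminin. They were taken by gene symbol, and all 10 were found among the 25791 gene rows of the deposited table. RNA had been sequenced from Extensively Self Renewing Erythroblasts (ESREs), immature red cells able to divide for long in culture, in 2 groups. The first, called expansion, was taken while the cells proliferated, and the second, called maturation, at day 1 of their maturation. Both groups have a C57/bl6 background, and the labels refer to a published method for erythroblasts of the early fetus for both the growth and the maturation of the cells. The series title names transgenic β-Yac mice, but the labels do not say whether these cells carried the transgene, nor how many cell lines were used. Values are FPKM, sequenced fragments scaled by transcript length and by library size, which allows levels of different genes to be set side by side. The table holds 1 value per gene and group, so differences cannot be set against a spread between replicates, no p-value, SD or n is given, and the sequencing depth is unknown.

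Replication origins are licensed between mitosis and S phase. The origin recognition complex (ORC) binds DNA, and CDC6 and CDT1 then load rings of MCM2 to MCM7, the core of the replicative helicase, in an inactive form. In S phase, kinases together with CDC45 and the GINS complex turn the rings into moving helicases, with MCM10 needed for the activation. Geminin binds CDT1 and blocks new loading, and CDT1 itself is destroyed in S phase, so that each origin is used once per cycle. Erythroblasts keep dividing during the first part of their maturation and leave the cycle later.

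All 10 licensing genes stood at higher FPKM in maturation than in expansion, by 1.505-fold for Mcm3 up to 2.84-fold for Cdc6. The genes of the helicase ring lay close together, between 1.505-fold and 1.93-fold, and Cdc6 had the largest ratio. Log2 ratios, maturation over expansion, were taken of FPKM + 1, and the 9263 rows that reached 1 FPKM in either group are called expressed. The 10 licensing genes had a median log2 ratio of 0.80, against -0.25 for all expressed rows. All 10 ratios were above 0, whereas 25.9% of all expressed rows were above 0. At least 2-fold higher was 1 licensing gene of 10, Cdc6, against 3.13% of expressed rows. No licensing gene was 2-fold lower or more, against 6.7%. At least 1.5-fold higher on the same scale were 9 of 10, all but Mcm3, against 6.3% of expressed rows. No licensing gene was 1.5-fold lower or more, against 20.4%. With that overall median of -0.25 set to 0 (centring), 6 of the 10 were at least 2-fold higher, namely Cdc6, Mcm5, Mcm4, Cdt1, Mcm7 and Mcm6, beside 4.53% of all rows higher and 3.92% lower. When both groups were scaled to the same upper quartile, 5 were, beside 4.09% of all rows higher and 5.08% lower. Scaled to equal sums without short RNA rows, 2 were, beside 3.63% higher and 5.59% lower. With 0.1 in place of 1 added to FPKM, 1 was, beside 4.03% higher and 14.1% lower. With 5 added, 0 were, beside 1.79% higher and 1.60% lower. In cells measured in bulk, more cells in a given phase of the cycle and more RNA per cell cannot be told apart.

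**Figure D1:**
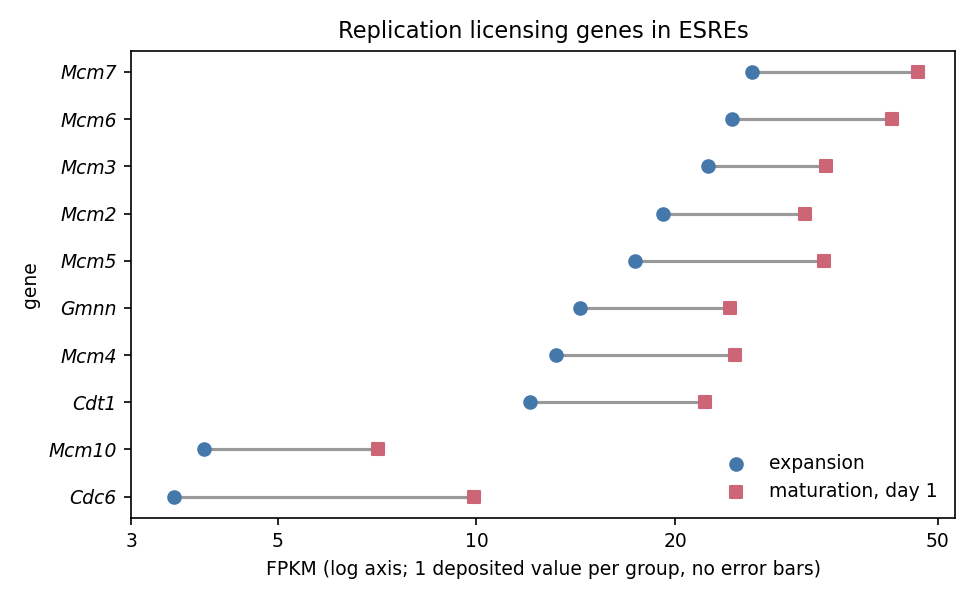
FPKM (log axis) of the 10 licensing genes in expansion (circles) and at day 1 of maturation (squares), 1 deposited value per group, joined by a grey line for each gene. Each square lies to the right of its circle, Mcm7 is highest in both groups, and Cdc6 has the longest line, from 3.49 to 9.90 FPKM.

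**Figure D2:**
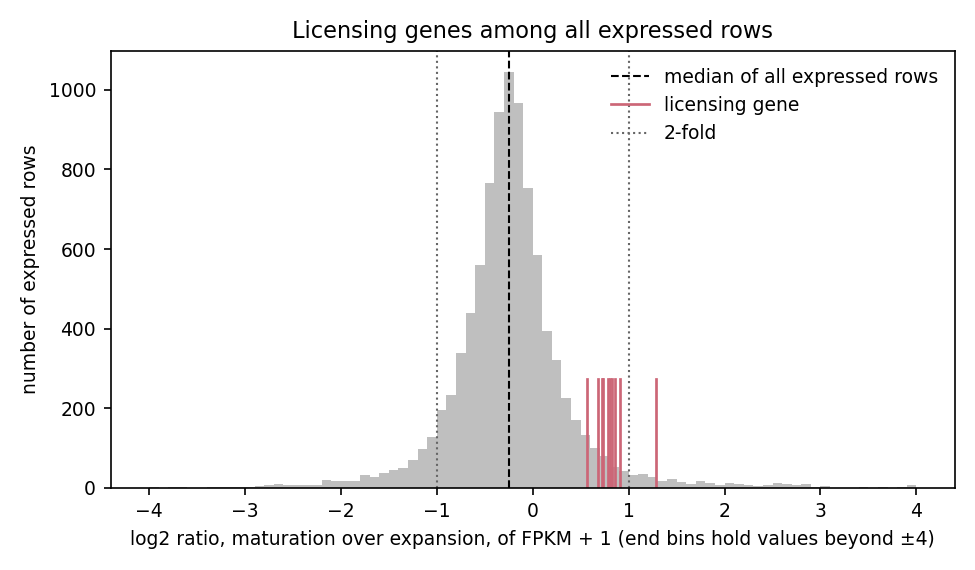
Histogram of the log2 ratios of all 9263 expressed rows, with the 10 licensing genes as short red lines, the median of all rows (-0.25) dashed and 2-fold dotted. The licensing genes lie between 0.57 and 1.28, in the right shoulder of the distribution, and 1 of them lies beyond 2-fold.

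The ring genes encode 6 different subunits that assemble in equal numbers, each with an ATPase domain of the AAA+ family. Mcm7 was at 26.1 FPKM in expansion against 46.6 in maturation (1.78-fold), the highest of the ring in both groups. Mcm6 was at 24.4 and 42.7 FPKM (1.75-fold). Mcm3 was at 22.5 and 33.8 FPKM (1.505-fold), the smallest ratio of the 10 licensing genes. These 3 were the highest of the ring in expansion, and the order among them was the same in maturation.

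Mcm2 was at 19.2 FPKM in expansion against 31.4 in maturation (1.64-fold). Mcm5 was at 17.4 and 33.6 FPKM (1.93-fold), the largest ratio within the ring. Mcm4 was at 13.2 and 24.7 FPKM (1.87-fold) and was the lowest of the ring in both groups. Mcm5 was thus below Mcm2 in expansion and above it in maturation, where it stood next to Mcm3. Whether these changes of order exceed the spread between cultures could not be judged from 1 value per group.

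Summed over the 6 ring genes, FPKM came to 123 in expansion against 213 in maturation, 1.73-fold higher. Equal numbers of transcripts would give each subunit 16.7% of that sum. Mcm7 held 21.3% in expansion and 21.9% in maturation, and Mcm6 19.9% and 20.05%. Mcm4 held 10.8% and 11.6%. The largest shifts belonged to Mcm3, from 18.3% to 15.9%, and to Mcm5, from 14.2% to 15.8%, while Mcm2 went from 15.6% to 14.8%. The highest ring gene was 1.98 times the lowest in expansion and 1.89 times in maturation. Single pairs shifted more, as Mcm3 was 1.29 times Mcm5 in expansion and 1.005 times in maturation.

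**Figure D3:**
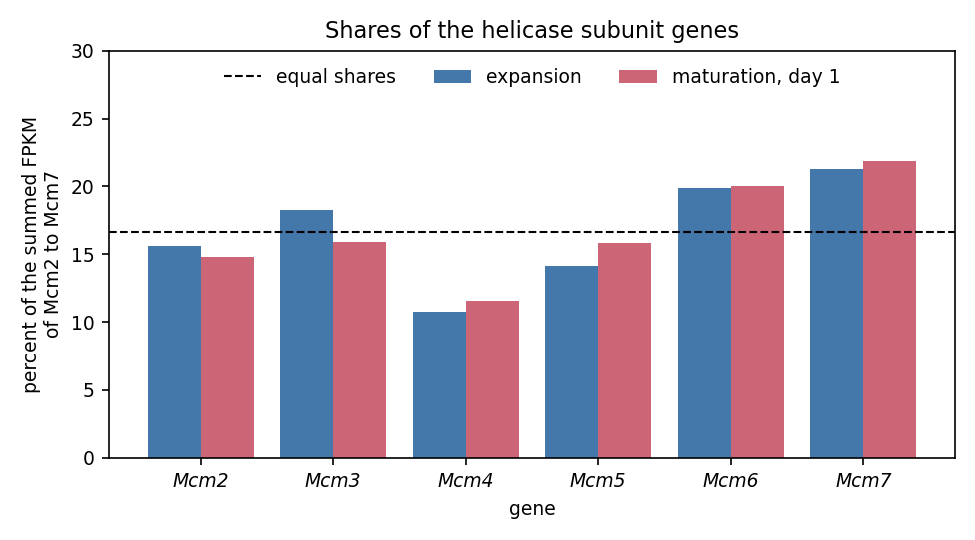
Percent of the summed FPKM of Mcm2 to Mcm7 held by each gene in expansion (blue) and at day 1 of maturation (red), 1 deposited value per group, with the equal share of 16.7% dashed. Mcm7 and Mcm6 lie above the equal share and Mcm4 below it in both groups, and Mcm3 is the one gene above it in expansion and below it in maturation.

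Among the genes outside the ring, the ring loader genes and the gene of their inhibitor were all higher. Cdc6, which encodes an ATPase that works with ORC to place the rings on DNA, was at 3.49 FPKM in expansion against 9.90 in maturation. It was the lowest of the 10 licensing genes in expansion and passed Mcm10 in maturation. Its log2 ratio of 1.28 was higher than 97.8% of those of all expressed rows. Cdc6 equalled 0.170 of the mean ring gene in expansion and 0.279 in maturation. With a pseudocount of 5 in place of 1 its log2 ratio was 0.81, under 2-fold.

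Cdt1, which encodes the partner of CDC6 in loading, was at 12.0 FPKM in expansion against 22.2 in maturation (1.84-fold). Gmnn, whose product geminin holds CDT1 inactive, was at 14.3 and 24.2 FPKM (1.69-fold). Gmnn was thus above Cdt1 in both groups. Cdt1 equalled 0.840 of Gmnn in expansion and 0.915 of it in maturation, a difference of 1.09 times, so loader and inhibitor transcripts differed between the groups by nearly the same factor. The ratio of Cdc6 to Gmnn was 0.243 and 0.409, and that of Cdc6 to Cdt1 was 0.290 and 0.446. These are ratios of transcript levels, and the proteins were not measured.

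Mcm10 encodes a protein that shares the name but not the ring, and acts when loaded rings are activated. It was at 3.87 FPKM in expansion against 7.09 in maturation (1.83-fold). It stood at 0.189 of the mean ring gene in expansion and 0.200 in maturation, so its level relative to the ring was almost the same in both groups. Because it is weakly expressed, its log2 ratio on FPKM + 1 (0.73) understates the difference more than for the ring genes.

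Each of the 10 log2 ratios lay above those of at least 93.4% of all expressed rows, the value for Mcm3. By level, the 6 ring genes, Gmnn and Cdt1 lay above at least 76.9% of expressed rows in expansion, the value for Cdt1. Mcm10 and Cdc6 lay in the middle, above 46.3% and 42.7%, and above 69.4% and 76.1% in maturation. Together the 10 genes made up 0.0381% of the table's total FPKM in expansion, against 0.0663% in maturation.

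The 6 ORC genes, which encode the platform on which the rings are loaded, were split. Orc1 (listed as Orc1l), the subunit known to vary through the cell cycle, was at 1.41 FPKM in expansion against 4.61 in maturation, a 3.26-fold difference. Its ratio of FPKM values was larger than that of Cdc6, while on log2(FPKM + 1) it was smaller, at 1.22. Orc6 was at 8.62 and 15.5 FPKM (1.80-fold) and Orc2 at 6.85 and 10.2 FPKM (1.48-fold). Orc3, Orc4 and Orc5 were slightly lower in maturation, at 2.66 and 2.57, 2.14 and 1.80, and 7.96 and 6.37 FPKM. On the log2 scale 3 of the 6 were above 0 and 3 below, beside 25.9% of all expressed rows above 0. Orc1 alone was beyond 2-fold, where 3.13% of all rows were 2-fold higher, and the median was 0.24. Of the 6, 5 lay above the median of all expressed rows, and after centring 2 were at least 2-fold higher, beside 4.53% of all rows. The mean ORC gene equalled 0.242 of the mean ring gene in expansion and 0.193 in maturation.

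Genes that turn the loaded ring into a working helicase (CDC45, GINS, the kinase CDC7 with DBF4, and the factors that recruit them) were all above 0. Of 17 such genes, 17 were expressed, 17 had a log2 ratio above 0, beside 25.9% of all expressed rows, and the median was 0.58. None lay beyond 2-fold, where 3.13% of all rows were 2-fold higher. Cdc45 (listed as Cdc45l) was at 4.90 FPKM in expansion against 8.79 in maturation. The 4 GINS genes, whose products bind the ring, were at 4.67 and 9.81 FPKM for Gins1, 5.04 and 9.07 for Gins2, 1.26 and 2.74 for Gins3, and 5.63 and 8.90 for Gins4. The FPKM values of Gins1 and Gins3 differed by 2.10-fold and 2.18-fold, which the pseudocount of 1 brings under 2-fold on the log2 scale used for counting. Summed GINS FPKM was 1.84-fold higher, near the 1.73-fold of the ring genes. The kinase genes differed less, with Cdc7 at 2.07 and 2.61 FPKM and Dbf4 at 7.70 and 9.31 FPKM. Topbp1, a scaffold of origin firing, was at 8.63 and 8.66 FPKM. After centring 2 of the 17 were at least 2-fold higher, beside 4.53% of all rows.

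Genes whose products destroy CDT1 or geminin lay on both sides of 0, with 6 of 12 above it, beside 25.9% of all expressed rows. Ube2c alone was beyond 2-fold, beside 3.13% of all rows, the median was 0.0019, and 10 of the 12 lay above the median of all rows. Dtl, which directs a CUL4 ubiquitin ligase to CDT1, was at 4.63 and 8.72 FPKM (1.88-fold), and Pcna, the sliding clamp on which that ligase recognises CDT1, was at 75.6 and 138 FPKM (1.83-fold). The common parts of that ligase differed less and in both directions, with Cul4a at 5.64 and 5.04 FPKM, Cul4b at 3.59 and 2.78, Ddb1 at 32.4 and 28.5, and Rbx1 at 8.85 and 11.3. Skp2, which directs another ligase to CDT1, was at 1.69 and 1.02 FPKM. On the side of geminin, Ube2c, an enzyme that works with the anaphase-promoting complex, was at 25.5 and 54.2 FPKM (2.13-fold), Cdc20 at 9.43 and 12.8, and Fzr1 at 5.51 and 4.81. After centring 3 of the 12 were at least 2-fold higher, beside 4.53% of all rows, and with a pseudocount of 5 none was and the median was -0.00165.

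A further 4 genes are named for MCM proteins but are not part of the ring. Mcm8, a helicase gene of recombination, was at 1.43 and 1.80 FPKM, and Mcm9, its partner, was at 0.626 and 0.617 FPKM and did not reach the minimum of 1. Mcmbp (listed as 1110007A13Rik), which encodes a protein that binds MCM subunits, was at 3.76 and 3.29 FPKM. Mcm3ap, a gene of mRNA export, was at 3.38 and 2.51 FPKM. Of the 3 expressed, 1 was above 0, beside 25.9% of all expressed rows, and none was beyond 2-fold, so their counts were near those of all rows. Their median was -0.15, above the median of all expressed rows, and it was 0.0973 after centring.

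Genes of G1/S cyclins, kinases and E2F factors, which drive entry into S phase, ran from values near 0 to ratios above those of all licensing genes, and most genes of the fork were above 0. On the same log2 scale 4 of 8 in the first list were higher by 2-fold or more and none lower by as much, beside 3.13% and 6.7% of all expressed rows, and the list median was 0.97. That median was above the 0.80 of the licensing genes, but with a pseudocount of 5 it was 0.54, below their 0.69. Ccne1 was at 2.60 and 12.2 FPKM, E2f2 at 3.04 and 12.0, Ccna2 at 16.1 and 41.6, and E2f1 at 4.01 and 9.18. Cdk2 was nearly level, at 8.34 and 8.91 FPKM, as was E2f3, at 2.31 and 2.24. Of 21 fork genes 19 were above 0, beside 25.9% of all expressed rows. On the log2 scale Rfc4 alone was beyond 2-fold, and the list median was 0.35. Rfc4, a subunit of the clamp loader, was at 8.07 and 19.9 FPKM, Rpa2 at 9.05 and 17.4, and Fen1 at 15.2 and 27.1. Pold4, a small subunit of DNA polymerase delta, was lower, at 3.74 and 1.72 (0.460-fold). The pseudocount of 1 brings this difference under 2-fold on the log2 scale. After centring 4 fork genes were at least 2-fold higher, beside 4.53% of all rows.

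**Figure D4:**
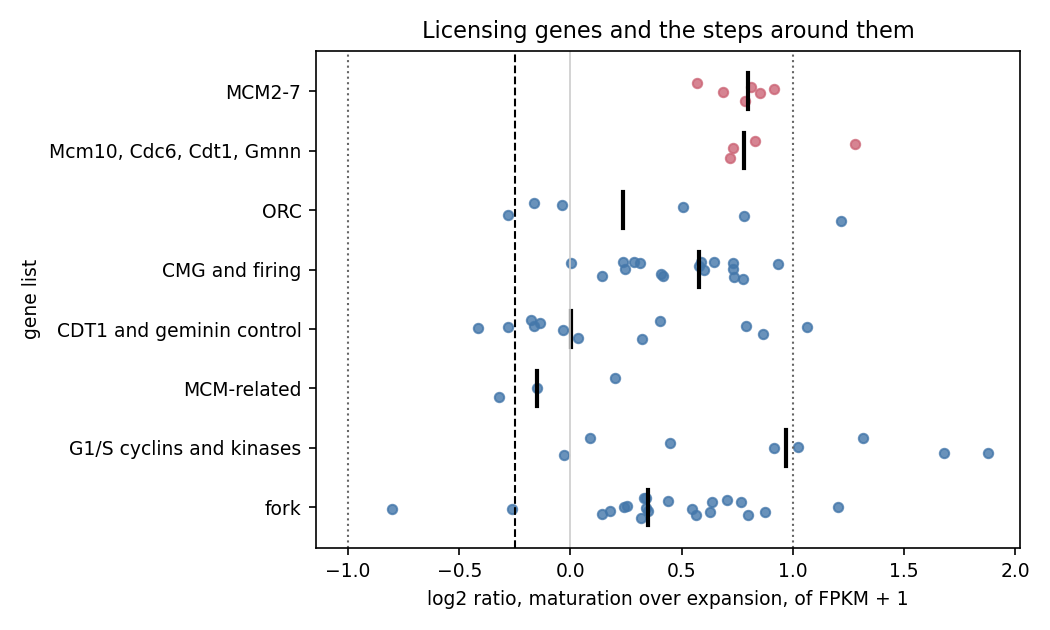
Log2 ratio of maturation over expansion for each expressed gene (dot) of the licensing genes (red, in 2 rows) and of the lists around them (blue), with list medians as black bars, the median of all expressed rows (-0.25) dashed and 2-fold dotted. The ring genes form a narrow group between 0.57 and 0.91, whereas ORC genes run from -0.28 to 1.22.

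Expressed genes beside the licensing genes on the chromosome had lower ratios than they did, as had most expressed rows. The table's loci, given here on build mm9 with starts counted from 1, were used to take the 10 rows, short RNAs aside, within 5 kb of a licensing gene. Of these, 6 were expressed, beside 4 licensing genes, and their log2 ratios ran from -0.57 to 0.10. Above 0 was 1 of them and below it 5, a split near that of all expressed rows, with 25.9% above 0. Cdt1 lies on chromosome 8 (125091915 to 125097030), and 1506 bases from it Aprt, a purine salvage gene, was at 33.0 FPKM in expansion against 21.9 in maturation. Mcm7 lies on chromosome 5 (138605817 to 138613090). Beside it, Ap4m1 and Taf6, which the table places at the same locus, were at 1.74 and 1.94 and at 4.98 and 4.57 FPKM. That shared locus begins 158 bases away, and the distance of each gene within it is not given. On the other side of Mcm7, Cops6 was at 17.4 and 13.0 FPKM. Mcm6 lies on chromosome 1 (130228168 to 130256233), with Dars at 14.3 and 13.5 FPKM beside it, and Mcm2 on chromosome 6 (88833468 to 88848774), with Tpra1 at 3.11 and 2.54 FPKM. The others lie on chromosome 1 (Mcm3, 20793095 to 20810294), chromosome 2 (Mcm10, 4911770 to 4933837), chromosome 8 (Mcm5, 77633427 to 77652338), chromosome 11 (Cdc6, 98769203 to 98785256), chromosome 13 (Gmnn, 24843714 to 24853806) and chromosome 16 (Mcm4, 15623990 to 15637493). Prkdc, 465 bases from Mcm4, was at 0.977 and 0.876 FPKM, under the minimum.

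**Figure D5:**
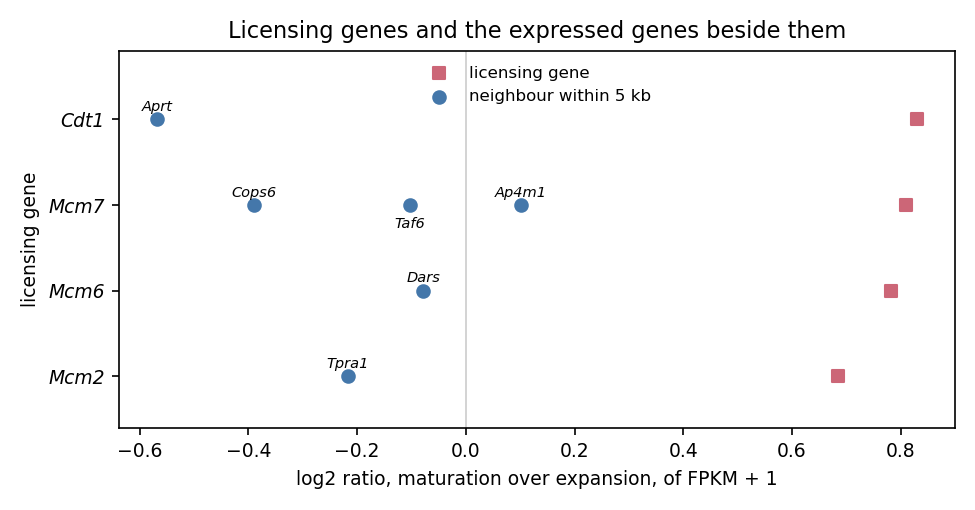
Log2 ratio of maturation over expansion for the 4 licensing genes with an expressed neighbour (red squares) and for the 6 neighbours within 5 kb (blue circles). The neighbours lie between -0.57 and 0.10 and the licensing genes beside them between 0.69 and 0.83.

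Mcm7 also carries 3 microRNA genes in its introns, and the table gives all 3 the locus of Mcm7. Mir25 was at 11.7 FPKM in expansion against 16.7 in maturation, Mir93 was at 2.23 and then listed at 0, and Mir106b was listed at 0 in both groups. Reads from such short rows and from the host transcript cannot be told apart here. Their mature sequences from RefSeq are shown because they share the transcript of a licensing gene, with the seed, bases 2 to 8, in capitals; miR-93-5p and miR-106b-5p have the same seed.
mmu-miR-25-3p: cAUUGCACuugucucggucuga
mmu-miR-93-5p: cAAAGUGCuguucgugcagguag
mmu-miR-106b-5p: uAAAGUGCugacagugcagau

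Because the licensing genes were all higher, their promoters were searched for short motifs on both strands over the 250 bases before each start in RefSeq (build GRCm38.p6, a later build than that of the FPKM table). The table of promoters held 8 of the 10 genes, with 2 starts for Mcm7, and Mcm4 and Gmnn had no entry. The letters TTTCCCGC or TTTGGCGC or TTTCGCGC or TTTGCCGC, which E2F factors are known to bind, were found in 4 of the 9 promoters, those of Cdc6, Mcm5, Mcm6 and Mcm7, and in 1.86% of all 32851 promoters. CCAAT was found in 7 of 9 (6 of 8 genes), against 33.8% of all promoters, and GGGCGG, the GC box, in 6 of 9 (5 of 8 genes), against 32.7%. Both starts of Mcm7 held CCAAT and a GC box. TTTGAA or TTCGAA, the cell cycle element CHR, was found in 2 of 9 (17.1% of all), and the GATA letters AGATAA or AGATAG or TGATAA or TGATAG in 1 of 9 (26.5% of all). The E2F letters of Mcm5 lay 153 to 142 bases before its start and those of Mcm6 110 to 99 bases, each time as 2 overlapping matches on opposite strands, and Mcm6 had a further match 47 to 40 bases before the start. Cdc6 had 1 match, 138 to 131 bases before its start, and no CCAAT. A match describes the letters only, and binding was not measured.

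The stretches that carry these letters are shown 5′ to 3′ on the strand of the gene, with E2F letters and CCAAT on either strand in capitals. They are the last 169 bases before the start, except that 30 bases are given for Mcm7, where annotated exons of Mcm7 and Ap4m1 overlap. Mcm3, which had the smallest ratio, is shown as a promoter with 3 CCAAT matches and none of the E2F letters.
Cdc6, chr11:98907982-98908150 (+ strand): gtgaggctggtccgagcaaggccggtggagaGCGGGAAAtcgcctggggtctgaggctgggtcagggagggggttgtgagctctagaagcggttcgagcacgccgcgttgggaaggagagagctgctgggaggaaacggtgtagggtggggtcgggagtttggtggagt
Mcm5, chr8:75109340-75109508 (+ strand): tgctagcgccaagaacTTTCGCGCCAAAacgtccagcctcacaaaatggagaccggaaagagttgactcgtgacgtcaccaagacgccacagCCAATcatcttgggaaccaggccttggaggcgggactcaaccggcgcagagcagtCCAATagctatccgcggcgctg
Mcm6, chr1:128359706-128359874 (- strand): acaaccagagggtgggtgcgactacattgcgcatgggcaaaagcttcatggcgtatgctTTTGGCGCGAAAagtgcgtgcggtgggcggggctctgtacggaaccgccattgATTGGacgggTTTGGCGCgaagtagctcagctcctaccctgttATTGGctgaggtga
Mcm7, chr5:138172030-138172059 (- strand): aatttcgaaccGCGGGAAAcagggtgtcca
Mcm3, chr1:20820313-20820481 (- strand): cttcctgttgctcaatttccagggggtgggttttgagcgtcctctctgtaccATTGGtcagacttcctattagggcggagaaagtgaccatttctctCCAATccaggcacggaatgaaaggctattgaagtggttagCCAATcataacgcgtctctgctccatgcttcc
The genes with E2F letters had log2 ratios of 1.28 (Cdc6), 0.91 (Mcm5), 0.81 (Mcm7, at 1 of its 2 starts) and 0.78 (Mcm6). None of the E2F letters were found for Cdt1 (0.83), Mcm10 (0.73), Mcm2 (0.69) and Mcm3 (0.57). Cdt1 also had no CCAAT in its window, and Mcm10 had 2 CCAAT matches. A link between the letters and the ratios was not tested.

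The genes whose values were most like those of the ring were found by their distance, on log2(FPKM + 1) over the 2 groups, to the median point of Mcm2 to Mcm7. The 5 nearest rows were Ppp2r4 at 20.5 and 33.3 FPKM (distance 0.0234), Tacc3 at 21.1 and 34.2 (0.0286), Gm5593 at 19.8 and 35.1 (0.0860), Dek at 20.2 and 35.7 (0.0903), and Mrpl18 at 20.6 and 31.0 (0.117). The likeness rests on 2 values per gene.

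Several features of the whole table moved alongside these values. All 7 erythroid markers reported (Gata1, Klf1, Epor, Alas2, Hba-a1, Tfrc and Slc4a1) were expressed and above 0, beside 25.9% of all expressed rows. Alas2 and Slc4a1, at 0.975 and 0.0744 FPKM in expansion, reached 1 FPKM only in maturation. Summed FPKM of the 7 was 2014 in expansion and 8537 in maturation, nearly all of it Hba-a1 (1951 and 8370). Of 6 mast cell and basophil markers 3 were expressed, all at least 2-fold lower in maturation, beside 6.7% of all expressed rows. Their list summed to 20.8 and 2.12, with Cpa3 listed at 0 in maturation and Mcpt8 in both groups. Of 6 megakaryocyte markers 4 were expressed, 3 of them at least 2-fold lower, beside the same 6.7%, while Gp9 was higher, at 0.756 and 1.84 FPKM. The sums were 22.8 and 4.13, and Pf4 was at 0.0333 and then listed at 0. Ms4a2, Hdc, Gp5, Gp1ba and Itga2b reached 1 FPKM only in expansion, and Gp9 only in maturation. Macrophage markers summed to 1.34 and 0.595 FPKM over 5 genes and granulocyte markers to 0.0347 and 0.0150 over 5, with C1qa, Marco and Elane listed at 0 in maturation and S100a8 in both groups. Lymphocyte markers summed to 10.9 and 0.843 over 4 genes, nearly all of it Ptprcap (10.9 and 0.790), with Nkg7 listed at 0 in maturation. Short RNA rows made up 17.6% of total FPKM in expansion, against 25.5% in maturation. Which cells carried these marker transcripts was not tested, nor was any part of other cells or of short RNA rows in the licensing values.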

How the data were processed

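The authors deposited FPKM, per the file headers, with 1 value for each gene in each group. The submitters' processing notes name Cuffdiff 2.0.2 and mm9. Not given in the sources used here are the aligner, annotation, filters and any pooling of the duplicates that the series text mentions. Each column was taken as the authors' value for its group, so no test was made and the depth, and with it the precision, is unknown.

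Licensing genes were taken by symbol. Log2 ratios used a pseudocount of 1, which understates differences of weakly expressed genes, and expressed rows reached 1 FPKM in either group. At least 2-fold and 1.5-fold were counted on this log2 scale as sizes. Folds are ratios of the FPKM values. The 14 gene lists, the motifs and the naming rule were chosen with earlier results of these data known. The rule allowed all licensing genes, any member of the ORC, firing, degradation and MCM-related lists, and 5 rows of like pattern. From the G1/S and fork lists it allowed up to 4 members each by absolute log2 ratio. Cdk2 and E2f3, with the smallest absolute ratios of the G1/S list, were named outside the rule. Of the list entries 108 matched by symbol and 9 by a RefSeq synonym. Starts in the table were counted from 0, since this gave the RefSeq hairpin length for 175 of 175 microRNA rows. Promoter and microRNA sequences came from RefSeq, and exons from GENCODE M21. Some marker genes are not reported here. A planned look at protein sequences was not made. Python 3.11.15, pandas 2.3.3 and NumPy 2.4.6 were used. The counting was tested on simulated data without noise, which checks its arithmetic only.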

Additional observations from a re-analysis of the deposited data

How the results depend on the processing

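No paired analysis was possible because the table holds 1 value per group. Under the 5 other pseudocounts and scalings tried, the log2 ratios of the 10 licensing genes ran from 0.45 for Mcm10 to 1.53 for Cdc6. All stayed above 0, but a pseudocount cannot change the sign of a ratio, and each of the scalings raised all 10. These settings therefore do not test the direction. Counts below are of genes at least 2-fold higher unless said otherwise, and the cause of a difference was not tested beyond what each setting changes by construction. Centring added 0.25 to every ratio and gave 6 licensing, 2 ORC, 2 firing, 3 CDT1 and geminin control and 4 fork genes. Beside these, 4.53% of all rows were higher and 3.92% lower. Its medians were 1.04 for licensing, 1.22 for G1/S and 0.0973 for MCM-related genes (a change of sign). Equal upper quartiles gave 5 licensing, 1 firing, 2 control and 3 fork genes, beside 4.09% of all rows higher and 5.08% lower. The medians there were 1.002 (licensing), 1.15 (G1/S) and 0.0141 (MCM-related, a change of sign). Equal sums without short RNA rows gave 2 licensing genes (Cdc6 and Mcm5) and 1 firing gene, beside 3.63% of all rows higher and 5.59% lower. The G1/S median was then 1.07. Counting 1.5-fold gave 9 licensing, 2 ORC, 8 firing, 3 control and 7 fork genes with 1 fork gene lower, and 6.30% of all rows higher and 20.4% lower. A pseudocount of 5 left 0 licensing, ORC, control and fork genes, a control median of -0.00165 (a change of sign), lower medians of 0.69 for licensing, 0.54 for G1/S and 0.31 for firing genes, and 1.79% of all rows higher and 1.60% lower. A pseudocount of 0.1 gave 2 firing genes, 1 fork gene lower and a G1/S median of 1.20, beside 4.03% of all rows higher and 14.1% lower. A minimum of 5 FPKM left 0 ORC genes, a G1/S median of 1.17 and 5.31% of all rows higher, leaving no MCM-related gene for a median, and no filter gave 1.12% higher and 2.41% lower. With a pseudocount of 1 on both values, the ratio of Cdt1 to Gmnn was 0.850 in expansion and 0.919 in maturation. At the levels of these genes such a pseudocount can move the ratio only slightly. The unknown depth limits the weakly expressed genes most, Cdc6, Mcm10, Orc1 and Gins3 among those named.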
